A study of Homo sapiens with 9 samples.

Results

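ATF3, activating transcription factor 3, was followed here as a single gene across all 9 RNA-seq libraries of an experiment on the established line PANC-1, grown from a human pancreatic carcinoma. The gene was taken by its symbol and is 1 of 57820 GENCODE features among the 112171 features of the count table, with the identifier ENSG00000162772.12. It was selected on its measured levels in these same libraries, with its difference from DMSO known, so its own levels and differences are given as a description, without a test. In this experiment every culture spent 12 h under hypoxia before total RNA was extracted. Cells received rakicidin A at 42 nM, BE-43547A1 at 41 nM or DMSO, the solvent, at 0.04%, with 3 libraries per group, so the doses of the compounds differed by a small amount. Hypoxia was shared by all groups, no group was kept in normal oxygen, and no label states how much DMSO accompanied the compounds. No label names separate cultures behind the 3 libraries of a group, so p-values reflect only how far these libraries vary, and part of that variation may be technical.

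ATF3 belongs to the basic leucine zipper (bZIP) transcription factors, which bind DNA as pairs held together by a coiled coil of leucines next to a basic stretch that grips the DNA. It is known as an early stress gene: its transcript is low in resting cells and is raised after endoplasmic reticulum stress, amino acid shortage, DNA damage, cytokines and activation of stress kinases. One route runs through kinases that phosphorylate the translation factor eIF2 and so favour translation of ATF4, which binds the ATF3 promoter, and another runs through the kinases JNK and p38 to JUN and its partners. On its own ATF3 mostly represses transcription, while pairs of ATF3 with JUN family members can activate it, and ATF3 also represses its own promoter.

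GENCODE v29 lists 11 ATF3 transcripts on human chromosome 1, with 7 start positions, and 8 of them are protein coding. The count table gives 1 value for the gene, so isoforms were not separated. The RefSeq promoter table (GRCh38.p14) holds 2 ATF3 starts. The 250 bases before its upstream start, chr1:212565157-212565406 on the plus strand, are shown because they hold the 1 stress motif found among those searched. Capitals mark that match, TGATGGAA, which lies 191 to 184 bases before the start.
ATF3 upstream start: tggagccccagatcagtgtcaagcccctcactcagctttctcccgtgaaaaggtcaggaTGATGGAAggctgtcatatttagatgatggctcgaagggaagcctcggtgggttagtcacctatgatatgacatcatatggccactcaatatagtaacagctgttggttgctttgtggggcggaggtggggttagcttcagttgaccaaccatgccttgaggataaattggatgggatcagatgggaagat
The match belongs to the C/EBP-ATF composite element, TGATGNAA, to which ATF4 binds with a C/EBP partner. On either strand 3.14% of 35116 promoter windows of the same length held it. The other motifs were the ATF/CRE site TNACGTCA (in 2.67% of windows), the AP-1 site TGANTCA (6.57%), the ER stress element, which is CCAAT and CCACG with 9 bases between them (0.074%), the core of the hypoxia element ACGTG (18.5%) and an NF-kB site, GGG and TTTCC with 2 bases between them (1.73%). None of those letters stood in the 2 ATF3 windows searched, which says nothing of the factors themselves. GENCODE v29 lists more ATF3 starts (7), so sites before other starts could be missed. The build of the count table differs from that of the promoter table, so the position holds for GRCh38.p14 only.

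JDP2, a repressor that binds the same DNA sites as ATF3, was the closest relative among 52 other bZIP genes by local alignment score of the coding sequence. The alignment covered 283 positions, of which 191 (67.5%) were identical. It ran from base 249 to base 529 of the 546 coding bases of ATF3 and from base 207 to base 489 of the 492 of JDP2. The aligned stretches (GENCODE v29) are shown to make the relation of both genes visible, since their transcripts are compared further on. Capitals mark the bases at which they differ, gaps included.
ATF3 coding stretch: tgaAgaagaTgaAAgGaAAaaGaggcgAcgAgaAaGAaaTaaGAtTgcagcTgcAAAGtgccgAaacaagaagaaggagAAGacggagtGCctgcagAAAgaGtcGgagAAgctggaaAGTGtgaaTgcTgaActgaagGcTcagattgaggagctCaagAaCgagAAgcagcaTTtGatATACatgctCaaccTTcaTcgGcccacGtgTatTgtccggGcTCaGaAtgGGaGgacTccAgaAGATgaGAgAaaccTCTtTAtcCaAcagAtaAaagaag
JDP2 coding stretch: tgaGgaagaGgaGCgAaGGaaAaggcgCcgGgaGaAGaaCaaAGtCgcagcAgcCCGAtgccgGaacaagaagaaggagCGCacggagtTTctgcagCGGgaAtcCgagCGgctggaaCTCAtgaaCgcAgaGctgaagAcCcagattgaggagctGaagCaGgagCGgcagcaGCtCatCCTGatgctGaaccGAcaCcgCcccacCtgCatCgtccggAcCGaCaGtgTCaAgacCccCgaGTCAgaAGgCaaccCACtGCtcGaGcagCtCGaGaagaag
The differences are spread along the whole stretch. The next relatives by score were FOSL1, FOSB, FOS and FOSL2, with identities of 62.4 to 69.0% over shorter alignments.

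The 9 libraries held 26203326 to 45048999 counts on features, with the highest totals in the BE-43547A1 group, and 22353 features (genes from here on) had enough counts to be tested. Levels are CPM, the counts on a gene for a fixed total of counts, scaled by TMM, a factor that sets the bulk of genes equal between libraries. That factor was 1.145 to 1.152 in DMSO, 0.890 to 0.899 with rakicidin A and 0.963 to 0.989 with BE-43547A1. DMSO replicate 3 stood apart from its group: its counts differed from those of the other DMSO libraries with a chi-square per degree of freedom of 16.2 and 14.8, against 6.25 between the other pair and 2.74 to 7.54 within the compound groups. All 6 markers of ductal epithelium were measured. Their sum was 2842 to 3043 CPM in DMSO, 2423 to 2540 with rakicidin A and 3369 to 3631 with BE-43547A1. Most of it came from KRT8, KRT18 and KRT19, with DMSO means of 900, 811 and 1216 CPM. EPCAM, CDH1 and KRT7 were low, with DMSO means of 18.8, 7.995 and 5.13 CPM. The markers of the labelled tissue were thus present, but at very uneven levels. Of 4 leukocyte markers 2 passed the filter on low counts and of 4 stromal markers 2. Of 3 endothelial markers PECAM1 was not found by its symbol and so has no level. VWF and CDH5 did not pass that filter (summed 0 to 0.269 CPM in all libraries). The summed leukocyte markers lay at 1.53 to 1.82 CPM in DMSO, 1.60 to 2.06 with rakicidin A and 2.77 to 3.46 with BE-43547A1. The stromal ones lay at 8.51 to 12.6, 4.87 to 6.26 and 6.34 to 8.26 CPM, and their part in the results was not tested. In bulk RNA a change in the share of cells that make a transcript and a change per cell cannot be told apart.

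ATF3 had far fewer counts in hypoxic cells with solvent alone than in any library with a compound. It received 372, 350 and 444 counts in the DMSO libraries, 26041, 30671 and 21043 with rakicidin A and 46379, 42548 and 35666 with BE-43547A1. In other words 1 in 74739 counts fell on ATF3 in DMSO, 1 in 1185 with rakicidin A and 1 in 1020 with BE-43547A1.

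Scaled by TMM, the ATF3 level was 11.4, 11.0 and 12.6 CPM in DMSO (mean 11.7 ± 0.824, SD, n = 3). After rakicidin A it was 946, 979 and 902 CPM (942 ± 38.4, n = 3). After BE-43547A1 it was 1041, 1049 and 931 CPM (1007 ± 66.2, n = 3). The DMSO libraries lay far below all 6 others, with no overlap, while the ranges of the compounds overlapped. Replicate 3 had the lowest level within both compound groups and the highest within DMSO.

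The level with rakicidin A was higher than in DMSO by 6.34 ± 0.08 (log2 difference ± SE; 95% interval 6.14 to 6.53), a ratio of 80.7 (70.5 to 92.4). After BE-43547A1 the log2 difference was 6.43 ± 0.08 (6.24 to 6.63), a ratio of 86.3 (75.3 to 98.8). Both differences use the same DMSO libraries, and without DMSO replicate 3 they were 6.395 and 6.482. Even the lowest library with rakicidin A stood 71.6-fold above the highest in DMSO, and the lowest with BE-43547A1 stood 73.9-fold above it. With total counts alone as the scale, the group means were 13.4 ± 0.996, 844 ± 38.6 and 980 ± 73.4 CPM.

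Between the compounds the log2 difference, rakicidin A minus BE-43547A1, was -0.10 ± 0.06, with a 95% interval of -0.25 to 0.05. The ratio of 0.936 had an interval of 0.844 to 1.04. On this scale the order of the group means was DMSO, then rakicidin A and BE-43547A1, and the ranges of the compounds overlapped. By total counts alone the libraries with rakicidin A were at 850.1, 879.6 and 803 CPM and those with BE-43547A1 at 1029.5, 1016 and 896 CPM. Those ranges did not overlap, and the log2 difference was -0.216, so whether the compounds overlap in ATF3 depends on the scale.

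**Figure D1:**
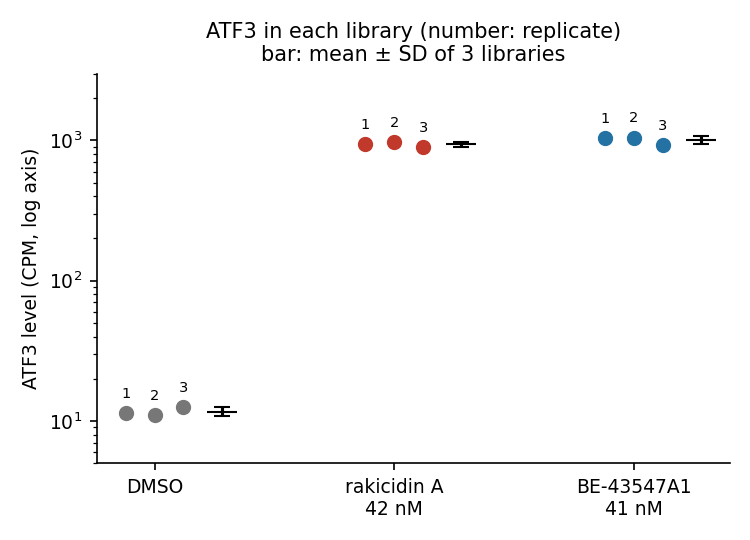
ATF3 level in CPM (log axis) in each of the 9 libraries, by group, with the replicate number above each point and the mean ± SD of 3 libraries beside it. DMSO lies at 11.0 to 12.6 CPM and the compound groups lie at 902 to 1049 CPM with overlapping ranges.

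The libraries of a group differed by more than counting error after the compounds. The coefficient of variation of the ATF3 level was 4.07% with rakicidin A and 6.58% with BE-43547A1, where counting alone would give 0.629 and 0.494%. In DMSO it was 7.07%, against 5.10% from counting. Counting error thus set little of the spread in the compound groups and a large part of it in DMSO.

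Against all genes, ATF3 lay near the end of the distribution. The median log2 difference over the 22353 tested genes was -0.02 for rakicidin A and 0.00 for BE-43547A1. The fitted difference was larger for 12 genes with rakicidin A and 65 with BE-43547A1. Of genes with at least 2 CPM in 1 of the groups compared and over 0.1 CPM in the other, 0 and 3 had a larger difference. None of the 9159 genes with a DMSO mean of at least 10 CPM, a minimum just below the DMSO mean of ATF3, was among them. Next to ATF3 in that set stood RCAN1, an inhibitor of the phosphatase calcineurin, at 5.91 ± 0.06 and 5.83 ± 0.06. HERPUD1, which helps remove misfolded proteins from the endoplasmic reticulum, followed with rakicidin A (5.57 ± 0.07), and IL8, the neutrophil chemokine also called CXCL8, with BE-43547A1 (5.59 ± 0.08).

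**Figure D2:**
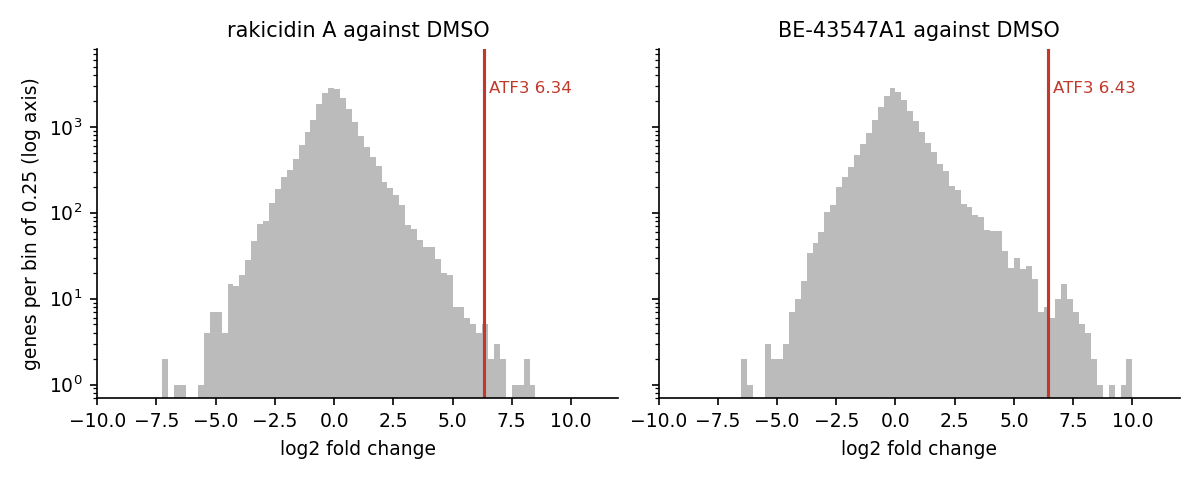
Number of tested genes (log axis) per bin of 0.25 of log2 fold change against DMSO, for rakicidin A and for BE-43547A1, with the ATF3 value as a line. ATF3 lies at 6.34 and 6.43, far out on the right of distributions centred near 0.

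The 10 genes with the profile most like that of ATF3 were taken by the smallest root mean square difference over the 9 libraries, after each log2 CPM profile was set relative to its own DMSO mean. Of 15036 named genes compared, 6 lay within 1 log2 unit of ATF3. They were KRTAP2-3, a hair keratin associated protein (0.41), RCAN1 (0.44), DUSP8, a phosphatase of JNK and p38 (0.47), the chemokine CCL20 (0.61), the metalloprotease MMP10 (0.88) and HERPUD1 (0.90). IL8 (1.05), the pseudogene ZSCAN12P1 (1.06), the cytokine IL11 (1.36) and MAFF, a small MAF protein of the bZIP family (1.45), followed. Because they were picked for likeness, no test was made on them.

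RCAN1 was the one with the most counts among the near profiles. Its level was 20.6, 20.8 and 19.1 CPM in DMSO, 1203, 1198 and 1238 with rakicidin A and 1148, 1153 and 1131 with BE-43547A1. As for ATF3, the compound groups lay close together and far from DMSO. With TMM all RCAN1 values with rakicidin A were above those with BE-43547A1, by 0.08 ± 0.05 (log2). Scaled to total counts they were 1081, 1077 and 1102 CPM against 1135, 1116 and 1089, with overlapping ranges.

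HERPUD1 had 17.7, 16.1 and 18.7 CPM in DMSO, 810, 832 and 859 with rakicidin A and 613, 568 and 593 with BE-43547A1. IL11 had 3.94, 3.69 and 4.74 CPM in DMSO, 66.4, 75.5 and 57.1 with rakicidin A and 335, 345 and 289 with BE-43547A1. Those profiles part from ATF3 in opposite ways: HERPUD1 was higher with rakicidin A by 0.50 ± 0.06 and IL11 was lower by 2.28 ± 0.09 (log2, rakicidin A minus BE-43547A1, -2.28). DUSP8 and CCL20 were also lower with rakicidin A than with BE-43547A1 (-0.99 ± 0.10 and -1.20 ± 0.09). So were IL8 (-0.85 ± 0.07), ZSCAN12P1 (-0.72 ± 0.10) and MAFF (-0.38 ± 0.05).

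Some of these genes had almost no counts in DMSO. KRTAP2-3 had 1 count over the 3 DMSO libraries, 363 with rakicidin A and 522 with BE-43547A1, which gives ratios of 441 (95% counting interval 78.6 to 17449) and 422 (75.4 to 16695). MMP10 had 3, 303 and 401 counts, with ratios of 123 (41.5 to 598) and 108 (36.7 to 526). The profile distance rests on log2 CPM with a prior count of 2, which pulls such genes toward a smaller difference. KRTAP2-3 belongs to a family of near-identical genes and ZSCAN12P1 is a pseudogene, so reads may be split between copies and both are uncertain. Restricted to genes with a DMSO mean of at least 2 CPM, a choice made after seeing the data, the nearest 5 were RCAN1, HERPUD1, IL8, IL11 and MAFF.

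Of the 10 genes, 9 had a RefSeq promoter window. HERPUD1 held the composite element found before ATF3, RCAN1, DUSP8 and MAFF held the ATF/CRE site, and RCAN1, MMP10, CXCL8 and IL11 held the AP-1 site. The hypoxia core stood in RCAN1, MMP10, HERPUD1 and MAFF, the NF-kB site in CCL20 and the ER stress element in none. Thus 1, 3, 4, 4 and 1 of the 9 genes held these motifs in at least 1 window. Of all single windows 3.14, 2.67, 6.57, 18.5 and 1.73% did. A gene can have more than 1 window, as ATF3 does, so the counts of genes and the shares of windows are not directly comparable. A match describes letters in a window and not binding.

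**Figure D3:**
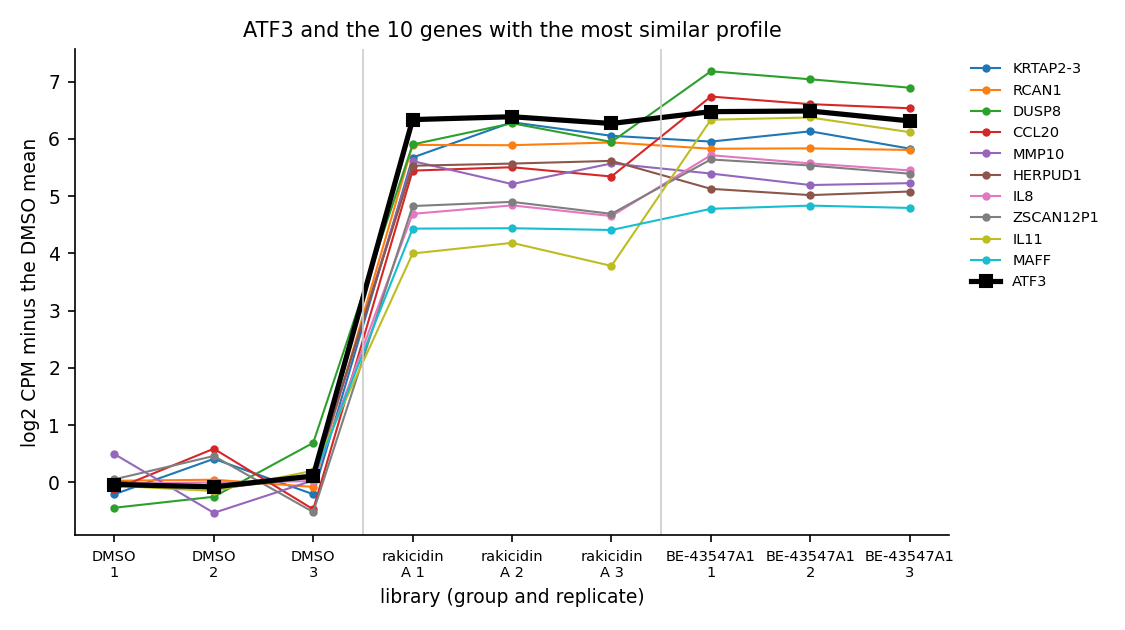
Log2 CPM minus the gene's own DMSO mean in each of the 9 libraries, for ATF3 (black squares) and the 10 genes with the most similar profile. All lie within 1 unit of 0 in DMSO and at least 3.78 higher with a compound. IL11, CCL20 and DUSP8 step up most from rakicidin A to BE-43547A1, with smaller steps up for IL8, ZSCAN12P1 and MAFF.

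The bZIP family gives the partners and competitors of ATF3. Of 52 other members 45 were tested. After rakicidin A 29 rose and 5 fell, with 11 not passing (edgeR, Benjamini-Hochberg adjusted p below 0.05), a median log2 change of 1.34. Over all tested genes 31.9% rose, 32.7% fell and 64.7% passed in either direction, with a median of -0.02. After BE-43547A1 35 members rose and 6 fell, with 4 not passing, a median of 1.20, where over all genes 35.3% rose, 35.1% fell and 70.4% passed. The share of the family that rose, 64.4 and 77.8%, was thus above that of all genes in both comparisons, which share their DMSO libraries. With total counts alone as the scale the medians over all genes moved to -0.38 and -0.24, and 26 rose and 9 fell with rakicidin A. Without DMSO replicate 3 the counts were 29 and 5, and 36 and 5.

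Largest among them were MAFF, DDIT3 and CREB5. DDIT3 encodes CHOP, a factor of the unfolded protein response that pairs with ATF3, and had 15.8, 18.4 and 16.7 CPM in DMSO, 405, 408 and 382 with rakicidin A and 388, 354 and 347 with BE-43547A1. It rose by 4.55 ± 0.07 and 4.42 ± 0.07 (log2), and between the compounds it differed by 0.13 ± 0.06 (adjusted p = 0.0818). MAFF rose by 4.43 ± 0.06 and 4.81 ± 0.06. CREB5, a binder of CRE sites, rose by 4.03 ± 0.11 and 4.63 ± 0.11 from 2.40 ± 0.241 CPM (SD, n = 3). Further members were JUND (2.30 ± 0.10 and 3.76 ± 0.10), CREB3L2 (3.17 ± 0.08 and 2.80 ± 0.08) and XBP1, the factor spliced by IRE1 (3.09 ± 0.06 and 2.91 ± 0.06).

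JDP2, the relative aligned above, also rose. Its level was 11.4, 11.1 and 13.0 CPM in DMSO, 58.7, 51.1 and 57.9 with rakicidin A and 46.9, 55.0 and 53.9 with BE-43547A1. DMSO did not overlap with the compounds, whose ranges overlapped. The log2 changes were 2.24 ± 0.08 and 2.13 ± 0.08, where those of ATF3 were 6.34 and 6.43. Between the compounds JDP2 differed by 0.11 ± 0.08 (edgeR, adjusted p = 0.27).

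Regulators and partners outside the naming rule were looked up after their values were seen. ATF4, the factor that acts on the ATF3 promoter, rose from 165 ± 1.96 CPM to 828 ± 19.5 and 640 ± 10.6 (SD, n = 3), and its log2 changes were 2.33 ± 0.05 and 1.96 ± 0.05. CEBPB, a C/EBP partner of ATF4, rose by 2.89 ± 0.07 and 3.03 ± 0.07, and CEBPG by 1.66 ± 0.06 and 1.06 ± 0.06. NFIL3, a repressor of the family, rose by 2.89 ± 0.07 and 2.57 ± 0.07.

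The FOS and JUN genes, whose proteins form AP-1, differed between the compounds. JUN had 151, 162 and 160 CPM in DMSO, 654, 701 and 609 with rakicidin A and 2070, 2139 and 1742 with BE-43547A1. FOS had 27.7, 24.8 and 22.8 CPM in DMSO, 11.0, 13.3 and 10.5 with rakicidin A and 118, 124 and 87.1 with BE-43547A1. Neither gene had overlapping groups, and FOS fell with one compound and rose with the other (-1.11 ± 0.12 and 2.13 ± 0.11).

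For the difference between the compounds (rakicidin A minus BE-43547A1) the log2 values were -1.60 ± 0.07 for JUN, -3.23 ± 0.12 for FOS, -2.78 ± 0.13 for FOSB, -1.59 ± 0.07 for JUNB and -1.47 ± 0.09 for JUND. The largest adjusted p among them was 7.75e-10 (edgeR). FOSL1 (-0.25 ± 0.11, adjusted p = 0.0827) and FOSL2 (-0.03 ± 0.05, adjusted p = 0.657) did not pass. Over the family 14 members were higher and 12 lower with rakicidin A than with BE-43547A1, with 19 not passing and a median of -0.03. Over all genes 24.1% were higher, 22.5% lower and 46.6% passed in either direction, with a median of -0.02. By total counts alone the family split was 9 higher and 20 lower.

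CREBL2, NFE2L3 and ATF5 moved against most of the family. CREBL2 changed by -0.76 ± 0.08 and -0.67 ± 0.08, NFE2L3, a relative of NRF2, by -0.72 ± 0.06 and -0.50 ± 0.06, and ATF5, a factor of amino acid and mitochondrial stress, by -0.41 ± 0.10 and -0.42 ± 0.09. ATF5 thus fell while its relatives ATF3 and ATF4 were higher.

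**Figure D4:**
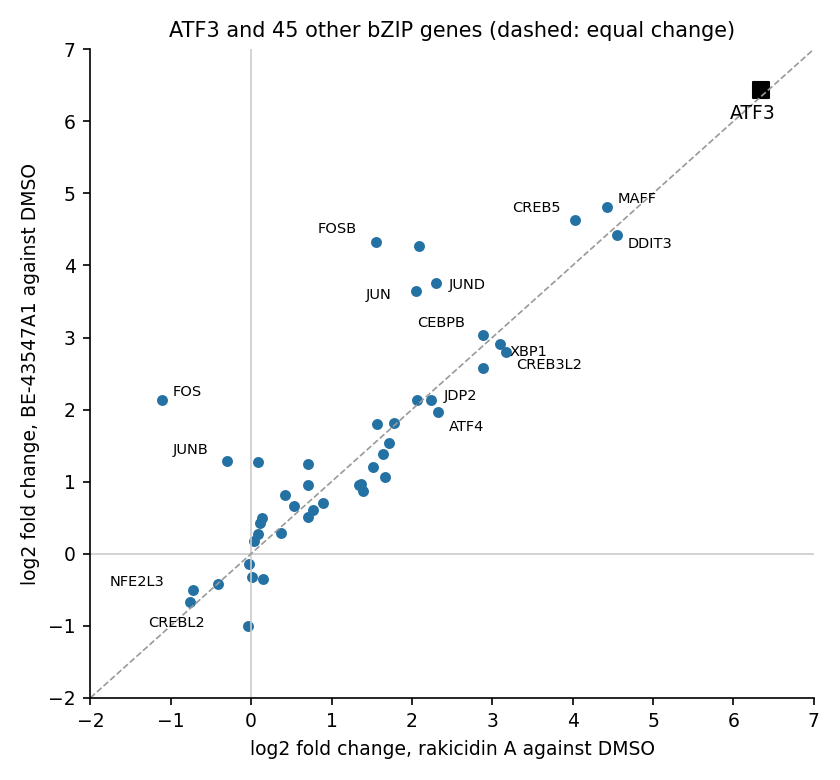
Log2 fold change against DMSO with rakicidin A (x axis) and with BE-43547A1 (y axis) for ATF3 (black square) and 45 other tested bZIP genes, with the line of equal change dashed. ATF3 lies farthest out at 6.34 and 6.43, near the line, while FOS, FOSB, JUN and JUNB lie above it. Both axes use the same DMSO libraries, so the points are not independent between axes.

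The eIF2 kinases and the factors around them make up the arm that leads to ATF4 and ATF3. Of 26 members, all tested, 14 rose and 7 fell with rakicidin A (median 0.16) and 11 rose and 10 fell with BE-43547A1 (median 0.00). By total counts alone those splits became 10 and 15, and 6 and 15, so the balance of directions depends on the scale. With TMM 53.8 and 42.3% rose, beside 31.9 and 35.3% of all genes, and 26.9 and 38.5% fell, beside 32.7 and 35.1%.

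With rakicidin A TRIB3 and EIF2AK3 had the largest rises of the arm. EIF2AK3, which encodes the ER stress kinase PERK, had 36.4, 35.5 and 31.4 CPM in DMSO, 460, 456 and 469 with rakicidin A and 277, 272 and 300 with BE-43547A1, changes of 3.75 ± 0.07 and 3.04 ± 0.07. TRIB3, an inhibitor of ATF4 and CHOP, had 13.2, 12.7 and 12.1 CPM in DMSO, 244, 212 and 219 with rakicidin A and 83.9, 72.5 and 89.1 with BE-43547A1, changes of 4.15 ± 0.08 and 2.69 ± 0.08. Neither gene had overlapping groups.

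PPP1R15A, the stress-induced subunit of the phosphatase that reverses eIF2 phosphorylation, rose by 3.68 ± 0.07 and 3.61 ± 0.07, and the second was the largest rise of the arm with BE-43547A1. Its constitutive counterpart PPP1R15B rose by 1.82 ± 0.06 and 1.79 ± 0.06. DNAJC3, an inhibitor of PERK, rose by 2.82 ± 0.07 and 2.01 ± 0.06, and the initiation factor gene EIF2A by 1.67 ± 0.06 and 1.09 ± 0.06.

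Of the other eIF2 kinases 2 fell and 1 did not pass. EIF2AK2, the kinase PKR that senses double-stranded RNA, fell (-0.73 ± 0.06 and -0.56 ± 0.06), as did EIF2AK4, the amino acid sensor GCN2 (-0.44 ± 0.07 and -0.43 ± 0.07). EIF2AK1, the kinase HRI, changed by 0.15 ± 0.07 (adjusted p = 0.073, edgeR) and 0.01 ± 0.07 (adjusted p = 0.912). Without DMSO replicate 3 the first of these was 0.253 (adjusted p = 0.000307), and by total counts alone both were negative and passed (-0.207 and -0.229, adjusted p = 0.0143 and 0.00722). IMPACT, an inhibitor of GCN2, fell by 0.67 ± 0.06 and 0.80 ± 0.06 (log2), and OMA1, the mitochondrial protease that relays stress to HRI, by 0.44 ± 0.08 and 0.91 ± 0.08.

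Between the compounds 14 of the 26 were higher with rakicidin A and 1 was lower (median 0.15), or 53.8 and 3.85% beside 24.1 and 22.5% of all genes. TRIB3 (1.46 ± 0.07), DNAJC3 (0.81 ± 0.06) and EIF2AK3 (0.71 ± 0.06) were among the higher ones, whereas ATF3 lay at -0.10 ± 0.06. PPP1R15A (0.08 ± 0.06, adjusted p = 0.353, edgeR) and PPP1R15B (0.04 ± 0.06, adjusted p = 0.622) did not pass.

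The stress kinases JNK and p38 with the kinases above them, another known route to ATF3, moved in both directions. Of 34 members 33 were tested: 16 rose and 11 fell with rakicidin A (median 0.03) and 15 rose and 14 fell with BE-43547A1 (median 0.10). Thus 48.5 and 45.5% rose, beside 31.9 and 35.3% of all genes, and 33.3 and 42.4% fell, beside 32.7 and 35.1%. By total counts alone the splits were 8 and 18, and 10 and 16. MAP2K3, which activates p38, changed most, from 4.91, 5.23 and 5.76 CPM in DMSO to 29.3, 33.9 and 31.0 with rakicidin A and 55.5, 53.2 and 47.0 with BE-43547A1 (2.56 ± 0.09 and 3.29 ± 0.09), with no overlap between groups.

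MAPK8, which encodes JNK1, rose by 1.38 ± 0.07 and 0.79 ± 0.07, and the JNK activator MAP3K10 by 1.13 ± 0.06 and 1.32 ± 0.06. The JNK scaffold gene MAPK8IP1 rose by 1.00 ± 0.14 and 1.38 ± 0.13, and its relative MAPK8IP2 by 0.87 ± 0.08 and 0.78 ± 0.08. MAP2K7, which activates JNK, rose by 0.81 ± 0.10 and 0.86 ± 0.10, and TAB2, an adaptor of the kinase TAK1, by 1.02 ± 0.06 and 0.69 ± 0.06. MAP3K5, which encodes the stress kinase ASK1, fell (-1.23 ± 0.07 and -1.10 ± 0.07), as did MAPK12, a p38 gene (-1.21 ± 0.08 and -0.95 ± 0.08). MAP2K6, of the same list, fell further (-2.28 ± 0.36 and -2.02 ± 0.31) from 0.961 ± 0.172 CPM in DMSO (SD, n = 3). That low level put MAP2K6 outside the naming rule. Between the compounds 11 members were higher and 10 lower with rakicidin A, 33.3 and 30.3% beside the same 24.1 and 22.5% of all genes, with a median of 0.04 (7 and 14 by total counts alone). These are transcript levels, and kinase activity was not measured.

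Genes known from other cells to be raised by ATF3 or with it were mostly higher. Of 16 such genes 15 were tested, of which 14 rose and 1 fell with rakicidin A (median 0.93) and 15 rose with BE-43547A1 (median 1.41), shares of 93.3 and 100% beside 31.9 and 35.3% of all genes. The list was chosen with results of these data known, so it does not stand as separate evidence of its direction. By total counts alone 10 rose and 2 fell with rakicidin A and 12 rose and 0 fell with BE-43547A1. Among the calls lost with rakicidin A on that scale were SNAI1, a repressor of epithelial genes (0.206, adjusted p = 0.149, edgeR), and PLAU, the urokinase gene (0.088, adjusted p = 0.335). GADD45A, a growth arrest gene, changed most: it had 36.9, 41.5 and 39.8 CPM in DMSO, 734, 769 and 733 with rakicidin A and 726, 773 and 757 with BE-43547A1. Its changes of 4.24 ± 0.06 and 4.25 ± 0.06 came with a difference between the compounds of -0.01 ± 0.06 (edgeR, adjusted p = 0.874), beside -0.10 ± 0.06 for ATF3.

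CHAC1, which degrades glutathione, rose by 3.78 ± 0.09 and 2.94 ± 0.09. The death genes PMAIP1 (2.78 ± 0.08 and 2.74 ± 0.08), TNFRSF10B, the receptor DR5 (2.21 ± 0.06 and 1.66 ± 0.06), and BBC3 (1.83 ± 0.13 and 1.72 ± 0.13) rose as well. KLF6, a zinc finger factor, rose by 1.50 ± 0.14 and 2.13 ± 0.14, although DMSO replicate 3, at 172 CPM, lay above the other DMSO libraries at 109 and 99.9.

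The member that fell with rakicidin A was HSPB1, a small heat shock protein gene (-0.33 ± 0.12, adjusted p = 0.0202, edgeR). Without DMSO replicate 3 its change was -0.108 (adjusted p = 0.204), and the call was also lost without rakicidin A replicate 2 or 3. Its rise with BE-43547A1 (0.28 ± 0.11) was lost without any 1 of 4 libraries: DMSO replicates 1 and 2 and BE-43547A1 replicates 1 and 2, and by total counts alone (0.045). Between the compounds 2 members of the list were higher and 7 lower with rakicidin A (median -0.36), 13.3 and 46.7% beside 24.1 and 22.5% of all genes. PLAU was among the lower ones (-1.48 ± 0.08) and was looked up after its values were seen.

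Genes known as repressed by ATF3 went both ways. Of 17 such genes 10 were tested, and 5 rose and 5 fell after each compound, 50% each way, beside 31.9 and 35.3% of all genes that rose and 32.7 and 35.1% that fell. TNF and SELE, an endothelial adhesion gene, had 4 and 2 counts over the DMSO libraries and passed the filter on low counts through the groups where they are high. With only the 6 libraries of the rakicidin A comparison in the fit 3 members rose and 5 fell. CH25H, CCL4, CXCL10, IFNB1 and the interleukin genes IL6, IL1B and IL12B had too few counts. ID1, a known ATF3 target that blocks differentiation factors, fell from 312, 272 and 225 CPM in DMSO to 26.0, 22.6 and 24.0 with rakicidin A and 43.3, 34.8 and 36.6 with BE-43547A1 (-3.48 ± 0.11 and -2.82 ± 0.10). The groups did not overlap, and no library with a compound came near the DMSO level.

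ID2 (-1.85 ± 0.09 and -0.95 ± 0.08), CCNE1, the gene of cyclin E1 (-1.09 ± 0.09 and -1.06 ± 0.09), and ID3 (-0.53 ± 0.10 and -0.52 ± 0.10) also fell. MMP2, a matrix protease gene, changed by -0.79 ± 0.08 and -0.22 ± 0.08, and the second call was lost without DMSO replicate 3 (-0.129, adjusted p = 0.0905, edgeR) and without BE-43547A1 replicate 2 or 3.

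SLC7A11, the cystine transporter gene that ATF4 raises and ATF3 is reported to repress, rose. It had 59.6, 54.1 and 52.3 CPM in DMSO, 618, 618 and 650 with rakicidin A and 203, 187 and 229 with BE-43547A1 (3.51 ± 0.08 and 1.90 ± 0.07). All rakicidin A libraries were above all BE-43547A1 libraries, by 1.61 ± 0.07 in the fit. IRS2, an insulin receptor substrate, rose by 3.19 ± 0.09 and 3.11 ± 0.09, and ASNS, asparagine synthetase, by 2.15 ± 0.06 and 1.64 ± 0.06.

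TNF had 1, 0 and 3 counts in DMSO, 6, 12 and 6 with rakicidin A and 132, 110 and 69 with BE-43547A1. Its changes of 2.75 ± 0.70 and 5.84 ± 0.43 moved to 3.94 and 7.02 without DMSO replicate 3, which held 3 of the 4 DMSO counts. Between the compounds 2 members of the list were higher and 4 lower with rakicidin A (median -0.22), 20 and 40% beside 24.1 and 22.5% of all genes.

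The ATF3 transcript is short-lived, and nonsense-mediated decay and AU-rich element binding proteins act on it in other cells. Of 24 genes of these pathways, all tested, 13 rose and 5 fell with rakicidin A (median 0.31) and 12 rose and 8 fell with BE-43547A1 (median 0.19). Thus 54.2% rose with rakicidin A and 50% with BE-43547A1, beside 31.9 and 35.3% of all genes, and 20.8 and 33.3% fell, beside 32.7 and 35.1%. By total counts alone the splits were 7 and 11, and 10 and 11. ZFP36L2, which binds AU-rich elements, rose by 1.61 ± 0.10 and 1.70 ± 0.10. The decay kinase gene SMG1 rose by 0.88 ± 0.06 and 0.95 ± 0.06, SMG9, its regulator, by 1.23 ± 0.09 and 0.84 ± 0.09, and the exon junction genes EIF4A3 by 0.54 ± 0.06 and 1.04 ± 0.06 and MAGOH by 0.75 ± 0.07 and 0.83 ± 0.07. SMG8, another regulator of SMG1, changed by -0.23 ± 0.09 and -0.61 ± 0.09, and the first call was lost by DESeq2 (adjusted p = 0.0568) and without DMSO replicate 1 or 2, rakicidin A replicate 2 or 3 or BE-43547A1 replicate 2. AUH, an AU-rich element binder, changed by -0.14 ± 0.11 (adjusted p = 0.274, edgeR) and -0.49 ± 0.11.

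ZFP36, the related binder tristetraprolin, had 125, 121 and 204 CPM in DMSO, 113, 119 and 107 with rakicidin A and 339, 407 and 299 with BE-43547A1. Its change with rakicidin A (-0.41 ± 0.14, adjusted p = 0.0189, edgeR) was -0.12 (adjusted p = 0.218) without DMSO replicate 3, and that call was also lost without rakicidin A replicate 1 or 3 and by DESeq2 (adjusted p = 0.144). After BE-43547A1 it rose by 1.22 ± 0.14. TIA1, an AU-rich binder of stress granules, fell by 0.22 ± 0.07 and 0.95 ± 0.07 (log2), and the first call was lost without rakicidin A replicate 1. Between the compounds 12 genes were higher and 4 lower with rakicidin A (median 0.12), or 7 and 10 by total counts alone. With TMM that is 50 and 16.7%, beside 24.1 and 22.5% of all genes. RNA half-life was not measured.

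None of the tested genes beside ATF3 on chromosome 1 changed as much as ATF3. Of the 5 nearest protein-coding genes on each side 9 were tested: 3 rose and 4 fell with rakicidin A, and 2 rose and 4 fell with BE-43547A1. The 7 and 6 of 9 that passed are to be read beside the 64.7 and 70.4% of all genes that did. NENF, the nearest on one side, changed by -0.29 ± 0.08 and 0.05 ± 0.08 (adjusted p = 0.00409 and 0.58, edgeR). The second value was -0.005 without DMSO replicate 3 and -0.188 by total counts alone.

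GARIN4, the nearest on the other side and listed as FAM71A in the table, had 2, 2 and 1 counts in DMSO, 13, 9 and 17 with rakicidin A and 38, 34 and 24 with BE-43547A1. It rose by 3.16 ± 0.55 and 3.86 ± 0.47 from a level near 0. Whether the counting used strand is not given, so reads from the other strand at that locus cannot be told apart from its own.

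BATF3, a bZIP gene close by, changed by 0.11 ± 0.29 and 0.43 ± 0.26 (adjusted p = 0.75 and 0.15, edgeR), and the first value was -0.243 by total counts alone. INTS7 (1.15 ± 0.06 and 0.67 ± 0.06) rose, while NSL1, a kinetochore gene (-1.22 ± 0.09 and -1.40 ± 0.09), TATDN3 (-0.67 ± 0.10 and -0.99 ± 0.09) and the phosphatase subunit gene PPP2R5A (-0.35 ± 0.06 and -0.57 ± 0.06) fell. DTL, a ubiquitin ligase subunit gene, moved by 0.62 ± 0.06 and -0.18 ± 0.06, and the second call was lost without BE-43547A1 replicate 1 (-0.118, adjusted p = 0.125). Between the compounds 4 of the 9 were higher with rakicidin A and 1 was lower, beside 24.1 and 22.5% of all genes.

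**Figure D5:**
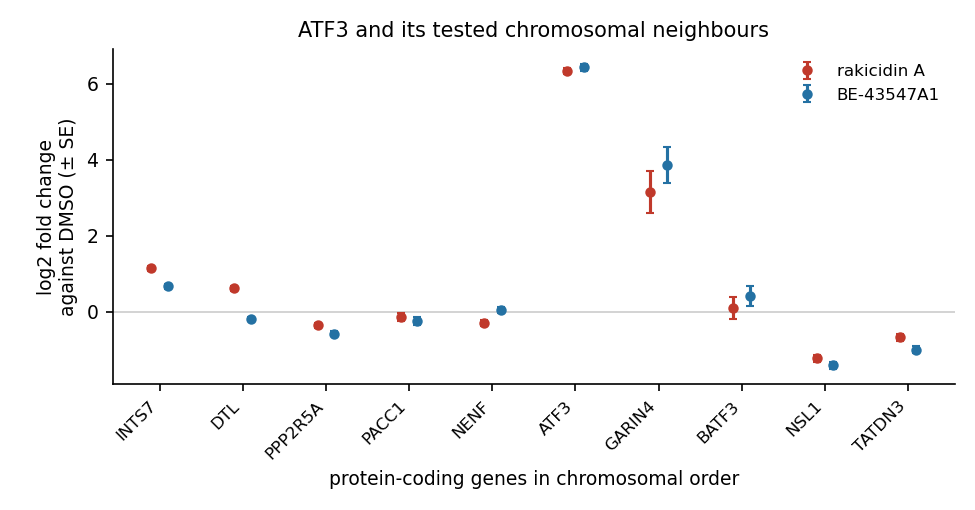
Log2 fold change against DMSO (± SE) with rakicidin A and with BE-43547A1 for ATF3 and its 9 tested neighbours, in chromosomal order. ATF3 lies at 6.34 and 6.43, GARIN4, which had 5 counts over the DMSO libraries, at 3.16 and 3.86, and the others lie between -1.40 and 1.15.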

How the data were processed

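Total RNA libraries with paired reads of 76 bases were compared, 3 per group. The deposited table holds raw counts per annotated feature and library. TopHat2, HTSeq and GRCh37/hg19 are named in the submitters' processing notes, but for settings and strandedness the sources used here give nothing. The 5 entries that name no gene (39.0 to 45.4% of these entries and the counts on features together) were set aside. Counts were fitted with edgeR 4.0.16 in R 4.3.3 (filterByExpr, TMM, quasi-likelihood, 1 mean per group over 9 libraries, 6 residual degrees of freedom). Passing means a Benjamini-Hochberg adjusted p below 0.05 over all 22353 tested genes. Standard errors are the log2 change over the square root of F, and intervals are at 95%. Depth limits low genes: with 350 to 444 DMSO counts, ATF3 itself had a counting error of 5.10%. Intervals on counts hold counting error alone, because PCR copies carry no molecular identifiers.

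The gene and the 6 lists (169 entries, 153 tested) were chosen with earlier results of these data known. Named from each list were the 6 members with the largest mean change among those with at least 2 CPM in a group and up to 3 whose change had the sign that fewer members had, and beyond the lists the 10 most similar profiles, the 5 neighbours on each side and the closest relative. That relative was set by coding sequence (Biopython 1.88) instead of protein. ATF4, CEBPB, CEBPG, NFIL3, FOS, FOSB, FOSL1, FOSL2, JUN, JUNB, EIF2AK1, EIF2AK4, MAP2K6, SNAI1 and PLAU were added after their values were seen. Replicate numbers did not pair libraries: same-numbered deviations correlated at -0.057 to 0.122. No 2 libraries of a group agreed within sampling noise. Alternatives were RLE size factors, total counts, no filter, DESeq2 1.42.0, limma-voom (limma 3.58.1), 6 libraries per comparison, a replicate block, a minimum change and each library left out. Figures used matplotlib 3.10.9 in python 3.11.15.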

Additional observations from a re-analysis of the deposited data

How the results depend on the processing

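The ATF3 difference moved most with total counts alone as the scale, to 5.978 (rakicidin A against DMSO), 6.194 (BE-43547A1 against DMSO) and -0.216 (rakicidin A minus BE-43547A1), since that scale drops the TMM factors. With each library left out it ranged from 6.30 to 6.395, 6.387 to 6.496 and -0.145 to -0.056. By DESeq2 it was 6.349, 6.438 and -0.089. With total counts alone 4480 genes passed as higher and 11380 as lower for rakicidin A, 5951 and 10450 for BE-43547A1 and 3933 and 6862 between the compounds, against 7141 and 7314, 7898 and 7840, and 5387 and 5036 with TMM. The median over all genes then moved from -0.022 to -0.141 between the compounds.

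A required log2 change of at least 1 cut the counts by its construction. Genes passed were 6211, 7075 and 2167 in the 3 comparisons. For rakicidin A against DMSO it left 6 of the eIF2 arm, 8 stress kinases, 6 genes raised with ATF3 and 2 decay genes. For BE-43547A1 it left 24 bZIP genes, 6 of the eIF2 arm, 6 stress kinases and 3 decay genes. Between the compounds it left 7 bZIP genes, 1 of the eIF2 arm, 0 stress kinases (21 without that minimum), 1 raised gene, 2 lowered genes and 1 decay gene.

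The replicate number as a block, in a design whose numbers did not pair the libraries (in 2 of 9 cases a library correlated best with its own number), gave 14359, 15670 and 10347 genes passed and 6.333, 6.428 and -0.095 for ATF3, and changed none of 220 calls on single genes followed. Over the alternatives other than the minimum change, 3453 of 3518 values of the 83 genes followed kept their direction and call, 50 lost the call, 6 gained it and 9 turned. Turned were BATF3 for rakicidin A (-0.243 by total counts, -0.238 to 0.335 with each library left out, lowest without rakicidin A replicate 2), EIF2AK1 for rakicidin A (-0.207 by total counts) and for BE-43547A1 (-0.229 by total counts, -0.062 to 0.104 with each library left out, below 0 without DMSO replicate 1 or 2 or BE-43547A1 replicate 2), and NENF for BE-43547A1 (-0.188 by total counts, -0.005 to 0.097 with each library left out, lowest without DMSO replicate 3). None of these passed with TMM, but by total counts EIF2AK1 passed as lower in both comparisons (adjusted p = 0.0143 and 0.00722) and NENF for BE-43547A1 (adjusted p = 0.0392), and the cause was not tested. Ranked by Pearson correlation instead of distance, 1 of the 10 genes most like ATF3, RCAN1, was shared.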
